A study of Mus musculus with 11 samples.

Results

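Ptn, Mdk, Gdnf, Slit2, Slit3, Hgf and Vegfa encode secreted proteins through which 1 cell acts on the growth, survival or direction of movement of its neighbours. These 7 genes were chosen by name, with earlier results of the same arrays known, as the growth and guidance factors that a feeder layer or the stem cells on it could release. They are represented by 20 of the 46627 probes. For 6 genes, 1 probe each was above background on every array of at least 1 group, out of 10058 genes that met that condition, and Hgf had no such probe.

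The study measured RNA on Illumina bead arrays in mouse induced pluripotent stem cells (iPSC), which are body cells returned to a state resembling the early embryo. There were 3 arrays of iPSC grown on feeder cells, 3 of iPSC grown feeder-free and 2 of feeder cells alone. All were of strain C57BL/6. As a further reference the authors mixed 92% of feeder-free signal with 8% of feeder signal in silico, 3 times. The iPSC on feeder were lifted mechanically off mitomycin C-treated SNL76/7 cells, which can no longer divide. The feeder-free iPSC were kept with 1000 units per ml of LIF (leukemia inhibitory factor, which holds mouse stem cells in the pluripotent state) in serum-containing medium, without feeder cells. The feeder cells were embryonic fibroblasts expressing LIF. Their arrays are called MSTO, and how MSTO and SNL76/7 relate is not stated in the labels, and values set against the feeder arrays assume that the 2 are alike. The source of LIF and the harvest also differed between the iPSC cultures, and their effects cannot be told apart from that of the feeder layer.

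Pleiotrophin (Ptn) and midkine (Mdk) form a family of small heparin-binding growth factors that act through the phosphatase receptor Ptprz1, the kinase Alk and cell-surface proteoglycans. GDNF binds the anchored receptor Gfra1 and signals through the kinase Ret. SLIT proteins bind Robo receptors and repel growing axons and migrating cells, HGF from mesenchymal cells acts on the kinase Met of epithelial cells, and VEGF-A acts on the kinases Kdr and Flt1 with neuropilin co-receptors.

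Levels are log2 signals after background correction and quantile normalization, on which 1 unit is a doubling. A probe was taken as detected where its score, read as 1 minus the detection p, was over 0.95. Detected probes numbered 17630 to 19043 per array in iPSC on feeder, 17307 to 18759 in feeder-free iPSC and 13581 to 14574 in feeder cells. Marker genes followed the labels. The summed signal of 9 pluripotent cell markers was 12790 to 19850 in iPSC on feeder, 15660 to 22030 in feeder-free iPSC and 82.5 to 172.4 in feeder cells, where 6 of the 9 were detected on no array. The summed signal of 12 fibroblast markers was 12690 to 21090 in iPSC on feeder, 7240 to 9530 in feeder-free iPSC and 40600 to 44550 in feeder cells. The lowest Pearson correlation between arrays of a group was 0.9919 for iPSC on feeder, 0.9939 for feeder-free iPSC and 0.995 for feeder cells. The replicates are numbered but not said to be separate cultures, so errors and p-values measure only the spread between these arrays, and the number of arrays limits the precision.

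Ptn, Gdnf and Slit2 were highest in feeder cells, low or undetected in feeder-free iPSC and in between in iPSC on feeder. RefSeq (GRCm38.p6) gives a start region for 6 of the 7 genes, 9 windows in all, each from 250 bases before to 50 bases after a transcription start. Those of the 3 feeder-side genes are printed because these genes share a pattern over the arrays. The windows are Ptn at chr6:36810130-36810429 on the minus strand, Slit2 at chr5:47982905-47983204, and Gdnf at chr15:7809798-7810097 and chr15:7813477-7813776, the last 3 on the plus strand. Each is read 5′ to 3′ along its gene's strand, with capitals marking motif matches on either strand.
Ptn: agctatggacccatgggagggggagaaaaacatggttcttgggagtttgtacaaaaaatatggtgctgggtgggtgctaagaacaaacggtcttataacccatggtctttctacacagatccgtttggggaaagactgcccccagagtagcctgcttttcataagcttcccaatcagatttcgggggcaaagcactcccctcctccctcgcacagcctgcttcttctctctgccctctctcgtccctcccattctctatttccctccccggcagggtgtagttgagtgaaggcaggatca
Slit2: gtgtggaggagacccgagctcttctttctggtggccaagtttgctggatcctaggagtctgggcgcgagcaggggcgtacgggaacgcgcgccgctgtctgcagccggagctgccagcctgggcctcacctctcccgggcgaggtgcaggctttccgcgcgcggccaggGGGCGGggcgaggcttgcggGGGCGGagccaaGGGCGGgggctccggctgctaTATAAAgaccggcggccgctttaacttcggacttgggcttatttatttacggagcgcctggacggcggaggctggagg
Gdnf, upstream start: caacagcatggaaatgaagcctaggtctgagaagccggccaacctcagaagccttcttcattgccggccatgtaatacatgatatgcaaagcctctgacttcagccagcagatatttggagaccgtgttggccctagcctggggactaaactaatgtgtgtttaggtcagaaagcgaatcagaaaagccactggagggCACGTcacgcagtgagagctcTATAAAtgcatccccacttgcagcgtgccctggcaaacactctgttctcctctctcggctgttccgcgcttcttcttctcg
Gdnf, downstream start: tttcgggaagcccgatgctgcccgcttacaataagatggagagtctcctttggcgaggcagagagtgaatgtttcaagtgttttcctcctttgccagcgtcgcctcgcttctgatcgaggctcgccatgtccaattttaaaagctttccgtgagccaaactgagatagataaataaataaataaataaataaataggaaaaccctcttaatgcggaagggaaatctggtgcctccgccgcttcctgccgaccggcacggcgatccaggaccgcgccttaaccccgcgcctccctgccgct
The letters searched were TATAAA (the TATA box), TGACTCA (the AP-1 element), GGGCGG (the GC box), ACGTG (the core of the hypoxia element) and CACGTG (an E box, which contains ACGTG). They occur in 13.6%, 5.2%, 35.7%, 19.6% and 7.15% of 32851 mouse start regions in that order. The Slit2 window held TATAAA at -28 from the start and 3 copies of GGGCGG. The upstream Gdnf window held TATAAA at -31 and ACGTG once, while the downstream Gdnf window and the Ptn window held none of the 5. The GC content was 52% for Ptn, 68% for Slit2 and 51.7% for each Gdnf window, against a median of 52.7% over all regions (quartiles 45.7% and 61.7%). CpG dinucleotides numbered 6, 30, 11 and 22 in the order printed, against a median of 7. A match is a run of letters and not a bound site.

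Ptn had the widest range over the groups. It stood at 7.80, 7.77 and 7.80 in iPSC on feeder, at 5.97, 5.52 and 5.50 in feeder-free iPSC, and at 13.23 and 13.45 in feeder cells. The groups did not overlap, and the SD over the 3 on-feeder arrays was 0.017. The level in iPSC on feeder was 4.37-fold higher than in feeder-free iPSC (log2 difference 2.13, SE 0.13), while feeder-free iPSC lay 205-fold under feeder cells (log2 difference -7.68, SE 0.15). A second Ptn probe was detected on no array, with scores of 0.04866 to 0.44666.

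Gdnf, which supports neurons and spermatogonial stem cells, stood at 6.65, 6.51 and 6.75 in iPSC on feeder, at 4.62, 4.86 and 4.72 in feeder-free iPSC, and at 9.36 and 9.18 in feeder cells. No feeder-free array detected it. Against such a group a fold is given as at least a value, taken to the lowest level among detected probes on each array, or to the probe's own level where that is higher. This bound, here and below, holds only for the constant (offset) of 16 added to each signal before the log2. On that basis Gdnf was at least 3.11-fold higher in iPSC on feeder than in feeder-free iPSC (log2 difference 1.90, SE 0.11), and feeder-free iPSC lay at least 19.3-fold under feeder cells (log2 difference -4.54, SE 0.12). With an offset of 50 these log2 differences were smaller, at 1.15 (SE 0.0816) and -3.43 (SE 0.0912).

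Slit2 had levels of 6.16, 6.19 and 6.33 in iPSC on feeder, of 4.84, 4.68 and 4.55 in feeder-free iPSC, and of 8.22 and 8.20 in feeder cells. It too was undetected on all 3 feeder-free arrays and did not overlap between groups. The bound was at least 2.34-fold higher in iPSC on feeder than in feeder-free iPSC (log2 difference 1.54, SE 0.10) and feeder-free iPSC lay at least 9.27-fold under feeder cells (log2 difference -3.52, SE 0.12). With an offset of 50 these log2 differences were 0.873 (SE 0.075) and -2.47 (SE 0.0839). Only 1 of 8 Slit2 probes and 1 of 2 Gdnf probes were detected on every array of a group. The other probes of both genes were detected on no array, feeder cells included, with highest scores of 0.93949 for Slit2 and 0.61447 for Gdnf.

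Mdk ran the other way. The level of this Ptn relative, which is abundant in the early embryo, was 10.18, 10.39 and 10.49 in iPSC on feeder, 9.87, 9.87 and 9.49 in feeder-free iPSC, and 4.50 and 4.69 in feeder cells, where it was not detected. Feeder-free iPSC were at least 19.4-fold higher than feeder cells (log2 difference 5.15, SE 0.15, and 3.94 with an offset of 50). Within the iPSC, all 3 on-feeder arrays lay above all 3 feeder-free arrays, by 1.53-fold (log2 difference 0.61, SE 0.13). Under median scaling in place of quantile normalization this difference was 0.61 (SE 0.24) and no longer past the threshold used for all genes.

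Vegfa, the main growth factor of blood vessels, was carried by all groups. It stood at 8.20, 8.02 and 8.51 in iPSC on feeder, at 7.61, 7.72 and 7.50 in feeder-free iPSC, and at 7.76 and 7.56 in feeder cells. Feeder-free iPSC and feeder cells overlapped (log2 difference -0.05, SE 0.15), a difference that turned to 0.47 (SE 0.27) with median scaling and passed the threshold under neither. The iPSC on feeder lay above both. The difference between iPSC on feeder and feeder-free iPSC was 0.63 (SE 0.13), or 1.55-fold, and with median scaling it was 0.63 (SE 0.24), short of the threshold.

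Slit3 and Hgf gave little or no signal. The Slit3 probe that passed was annotated to a cDNA clone, and it stood at 5.14, 4.89 and 4.91 in iPSC on feeder, at 4.95, 5.07 and 5.14 in feeder-free iPSC, and at 5.55 and 6.06 in feeder cells. It was detected on 1 of 3 on-feeder arrays, and the 2 kinds of iPSC overlapped (log2 difference -0.07, SE 0.13). Feeder-free iPSC were 1.69-fold lower than feeder cells (log2 difference -0.76, SE 0.15), and at -0.33 (SE 0.20) with median scaling not past the threshold. Another Slit3 probe, annotated to a RefSeq transcript, overlapped between them, at 4.82, 4.84 and 4.74 in feeder-free iPSC and 4.56 and 5.16 in feeder cells. That probe was detected on on-feeder array 3 only, and the last Slit3 probe on no array. The 3 probes of Hgf were detected on none of the 8 arrays, with a highest score of 0.92826 and a highest signal of 82.4, so Hgf RNA was not detectable here.

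**Figure D1:**
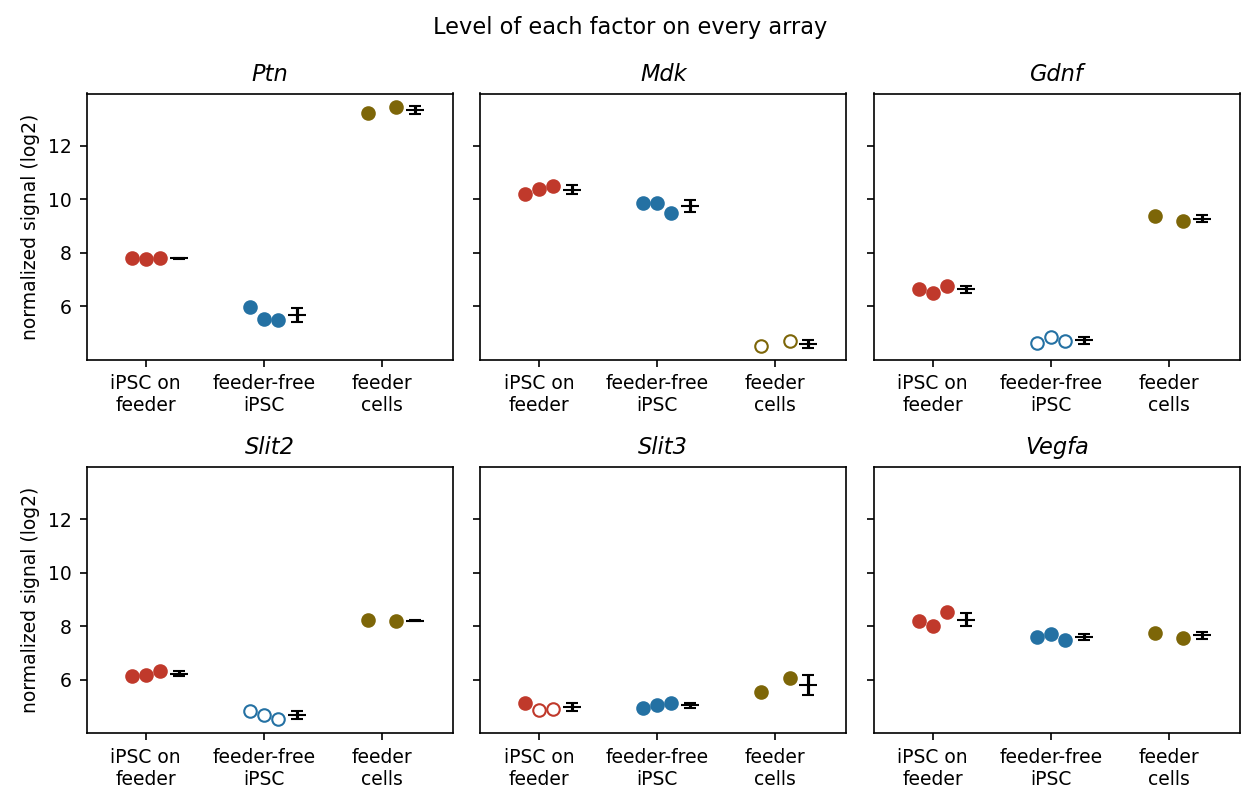
Log2 level of the 6 factors that passed the detection filter on each measured array, with filled points for arrays on which the probe was detected, open points for those on which it was not, and dashes with bars for the mean and SD of the group. Ptn, Gdnf and Slit2 are highest in feeder cells, Mdk is undetected there, and Vegfa is highest in iPSC on feeder.

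The levels of iPSC on feeder were set against feeder-free iPSC to ask what differed with the feeder layer. Of the 6 factors measured, 5 were higher in iPSC on feeder at an adjusted p under 0.05 (limma) and 5 did not overlap between the groups. Over all 10058 genes 18.5% were called, 10% higher and 8.46% lower, and 35.8% did not overlap, 17.9% higher and 18% lower. In feeder-free iPSC against feeder cells, 1 factor was called higher and 4 lower and those 5 did not overlap. Over all genes 81.9% were called there, 40.8% higher and 41.1% lower, and 87.9% did not overlap, 43.6% higher and 44.2% lower. Both comparisons use the same feeder-free arrays. The factors were chosen with these differences known, so the counts describe the choice and are read no further. In bulk RNA, fewer cells of a type and less RNA per cell cannot be told apart.

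**Figure D2:**
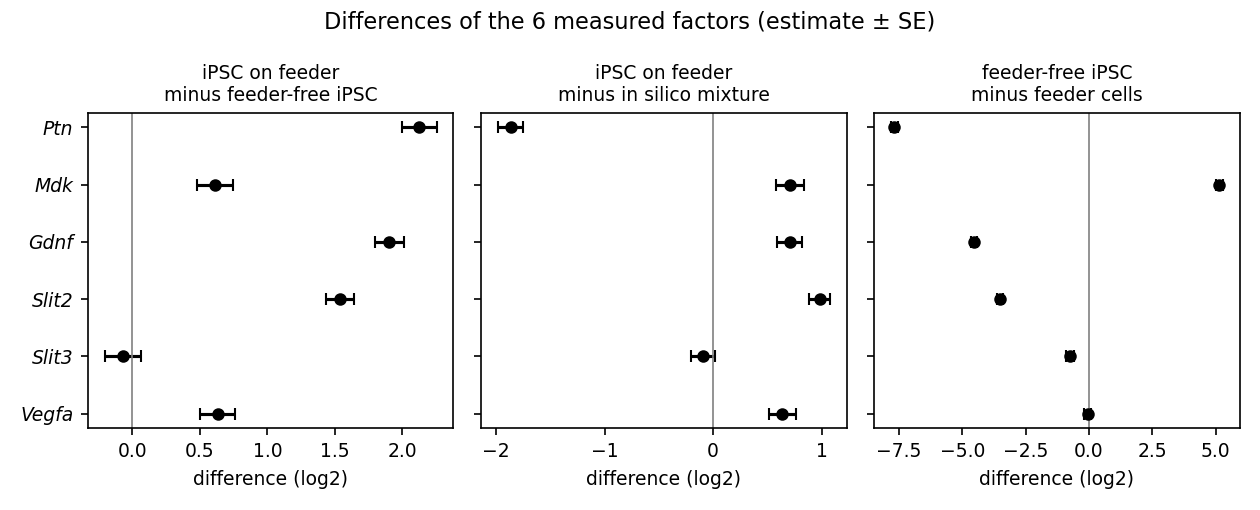
Log2 difference of each factor in the 3 comparisons, with bars for the standard error of the fit and a scale of its own in each panel. Ptn is higher in iPSC on feeder than in feeder-free iPSC, at 2.13, and lower than in the in silico mixture, at -1.87.

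The in silico mixture asks which levels exceed those of feeder-free iPSC with 8% of feeder signal added. These arrays were normalized on their own, so levels differ slightly from those above. Ptn was 3.65-fold lower in iPSC on feeder than in the mixture (log2 difference -1.87, SE 0.12), with 7.93, 7.90 and 7.93 in iPSC on feeder against 9.54, 9.83 and 9.98 in the mixture. Slit2 went the other way, at 6.34, 6.37 and 6.52 in iPSC on feeder against 5.44, 5.41 and 5.44 in the mixture, a log2 difference of 0.98 (SE 0.10). Gdnf was at 6.83, 6.70 and 6.93 in iPSC on feeder against 5.92, 6.16 and 6.25 in the mixture, a difference of 0.71 (SE 0.12). None of these 3 overlapped between the groups.

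Mdk and Vegfa also stood above the mixture, by 0.71 (SE 0.13) and 0.64 (SE 0.13) on the log2 scale, without overlap. Vegfa had 8.30, 8.14 and 8.61 in iPSC on feeder against 7.72, 7.81 and 7.60 in the mixture. Slit3 overlapped, at -0.09 (SE 0.11). Altogether 4 of the 6 were called higher and 1 lower, where 11% of all genes were called, 5.68% higher and 5.32% lower. The arrays did not overlap for those 5, nor for 33.8% of all genes, 15.8% higher and 18% lower. Median scaling left Mdk (0.731), Gdnf (0.761) and Vegfa (0.669) short of the threshold, and Vegfa also fell short without mixture replicate 3 (0.585).

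The contrast can also be put as a share of feeder signal, that is on-feeder minus feeder-free signal over feeder minus feeder-free signal. These signals were background-corrected but not normalized between arrays, so the share also scales with the brightness of each array. The share was 1.82%, 1.23% and 2.49% for Ptn on the 3 on-feeder arrays (1.85% ± 0.63, SD, n = 3). For Gdnf it was 16.9%, 10.8% and 24.2% (17.3% ± 6.68), and for Slit2 it was 26.1%, 19.3% and 41.8% (29% ± 11.5). The share was highest on replicate 3 and lowest on replicate 2 for each of these genes. Signals before normalization had the same order for Mdk (1229, 1063 and 1927) and Vegfa (369.2, 262.6 and 557.1). The cause of this order was not tested. The median over 41 feeder-specific probes moved the same way, at 7.51%, 3.49% and 12.4%, with quartiles over probes of 3.48% and 14.2%. These probes had a score over 0.99 on every feeder array, no detection on feeder-free arrays and a mean corrected feeder signal of at least 200. Probes of the factors were not left out of this set, and Ptn, detected in feeder-free iPSC, did not meet its rule. The mean share of Ptn lay below the lower quartile, and those of Gdnf and Slit2 above the upper one. Fibroblast markers moved with these genes: 9 of 12 rose in iPSC on feeder against feeder-free iPSC and none fell (median log2 difference 1.38), among them S100a4 by 3.62, the collagen crosslinker Lox by 2.54, the collagen chain gene Col6a1 by 2.50 and the proteoglycan Dcn by 2.44. Over all genes 10% were called higher in that comparison and 8.46% lower. Against the mixture S100a4 stood at 2.15, Dcn at 1.89, Col6a1 at 0.01 and Lox at -0.66. Of the 12 markers 5 were called higher than the mixture, 1 lower and 6 neither (median 0.18), where 5.68% of all genes were higher and 5.32% lower. The part of feeder cells in the result for each factor was not tested.

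Markers of other cell types moved as well between iPSC on feeder and feeder-free iPSC. Over all genes 10% were called higher there and 8.46% lower. Of 5 endothelial markers 3 fell and none rose (median log2 difference -0.44): the junction genes Cdh5 (-1.16) and Esam (-0.65) and the angiopoietin receptor Tek (-0.44). Of 7 primitive endoderm markers 4 fell and 1 rose (median -0.47). The transcription factors Gata4 (-1.27) and Foxa2 (-0.66) fell and the receptor Pdgfra (0.63) rose, with another probe of Gata4 at 0.09 and of Pdgfra at -0.17, short of the threshold. Sox7 also fell (-0.54), a call lost without feeder-free replicate 2 or on-feeder replicate 1. Of 9 pluripotent cell markers 2 fell, Utf1 (-0.51) and the growth factor Fgf4 (-0.42), and none rose (median -0.27). The Tek call was lost on leaving out any array but on-feeder replicate 3, and the Fgf4 call on leaving out any on-feeder array or feeder-free replicate 3. With median scaling Gata4 and Cdh5 passed the threshold and the other 7 of these genes did not. None of 3 neural markers and 1 blood cell marker tested was called by limma. The summed signal of the endothelial markers was 782.9 to 1190 in iPSC on feeder, 1044 to 1412 in feeder-free iPSC and 69.79 to 81.29 in feeder cells. Pecam1 had the highest level of the 5 in the iPSC, with means of 9.34 on feeder and 9.45 feeder-free, and was not called (-0.11, adjusted p = 0.528, limma). Cdh5 was far lower, at 5.42 and 6.59, as was Tek, at 5.46 and 5.91. The part of these cell types in the differences of the factors and receptors was not tested.

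**Figure D3:**
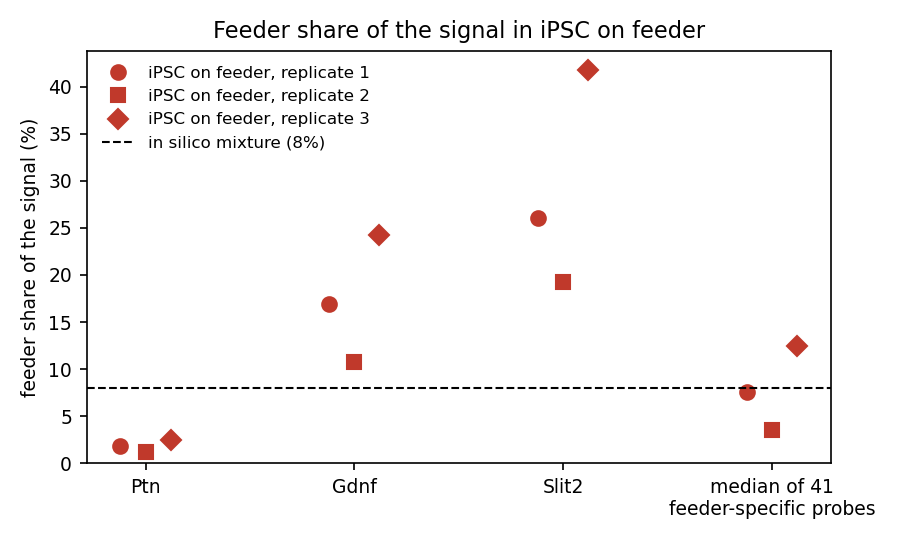
Share of feeder signal, in percent, on each array of iPSC on feeder for Ptn, Gdnf, Slit2 and the median of 41 feeder-specific probes, with a dashed line at the 8% used in the mixture. The signals were not normalized between arrays. Ptn lies under the line on every array, at 1.23% to 2.49%, and Slit2 above it, at 19.3% to 41.8%.

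Receptors for these factors split between the cells. Of 27 receptors and co-receptors listed, 21 passed the filter. Of these, 8 rose in iPSC on feeder against feeder-free iPSC and none fell (median log2 difference 0.31, against -0.02 over all genes). Over all genes 10% were called higher in that comparison and 8.46% lower. A gene detected in 1 group only passes the filter through that group, so the list's counts lean toward genes that differ. This and the other gene lists were also chosen with earlier results of these arrays known. Their counts and p-values are therefore given as a description. The largest rise was that of Nrp1, a co-receptor of VEGF-A and semaphorins, at 8.06, 8.00 and 7.91 in iPSC on feeder against 6.20, 6.20 and 6.17 in feeder-free iPSC. That is 3.5-fold (log2 difference 1.81, SE 0.09, adjusted p = 5.42e-08, limma). Another Nrp1 probe rose by 1.68, and the last stood at 0.13, not past the threshold. Met, the HGF receptor, stood at 5.71, 5.67 and 5.64 in iPSC on feeder against 5.05, 5.07 and 5.27 in feeder-free iPSC, a rise of 0.55 (SE 0.11, adjusted p = 0.0046), although its ligand was not detected.

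The other 6 that rose bind heparin-binding growth factors or assist their receptors. The proteoglycan cores Sdc2 (0.98, SE 0.12), Gpc1 (0.79, SE 0.09) and Sdc3 (0.53, SE 0.11) rose, as did the endocytic receptor Lrp1 (0.58, SE 0.12) and the adhesion molecule Ncam1 (0.60, SE 0.12). Of the other Ncam1 probes, 1 rose by 0.45 and 1 stood at 0.27 (adjusted p = 0.0874, limma), short of the threshold. Sdc4 rose by 0.34 (adjusted p = 0.0495), a call that was lost when any of 5 of the 6 arrays was left out, all but feeder-free replicate 1. Of the 8, 7 lay under feeder cells in feeder-free iPSC, by 18.4-fold for Nrp1, 7.41-fold for Sdc2, 6.77-fold for Gpc1 and 4.9-fold for Met. With median scaling Nrp1, Sdc2, Gpc1 and Met passed the threshold and the other 4 did not.

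Against the mixture 6 receptors were higher and none lower, where 5.68% of all genes were called higher and 5.32% lower. Of these 6 receptors, 5 were among those 8: Nrp1 (0.62, adjusted p = 0.0048), Lrp1 (0.64, 0.00992), Ncam1 (0.64, 0.0101), Sdc2 (0.56, 0.014) and Met (0.36, 0.0494). The sixth was Gfra1 (0.42, adjusted p = 0.042, limma). The Met call was lost without feeder replicate 1, mixture replicate 1 or 2 or any on-feeder array, and that of Gfra1 without any mixture or without on-feeder replicate 1 or 2. That of Sdc2 was lost without mixture replicate 3 or on-feeder replicate 1 or 3, and that of Lrp1 without mixture replicate 2. With median scaling 110 of all genes were called against the mixture, in place of 1106. The receptor calls under that setting are not given here.

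Among the receptors of GDNF and SLIT, Robo1 and Gfra1 in feeder-free iPSC exceeded feeder cells. Ret (log2 difference 0.27, adjusted p = 0.115) and Robo2 (0.01, adjusted p = 0.945, limma) did not pass the threshold there. Robo4, named after its value was seen, also exceeded feeder cells (log2 difference 2.03, at least 2.04-fold). Robo1, a receptor of SLIT2, had levels of 7.78, 7.86 and 8.28 in iPSC on feeder, 8.42, 8.14 and 8.16 in feeder-free iPSC, and 4.54 and 4.49 in feeder cells, where it was not detected. Feeder-free iPSC were at least 6.82-fold higher than feeder cells, and iPSC on feeder and feeder-free iPSC overlapped (log2 difference -0.27, SE 0.14, adjusted p = 0.199, limma, but past the threshold without on-feeder replicate 3). Gfra1 in feeder-free iPSC exceeded feeder cells by at least 1.07-fold (log2 difference 0.77, SE 0.12) and stood at 0.31 (adjusted p = 0.0685) in iPSC on feeder against feeder-free iPSC. Ret (-0.26, adjusted p = 0.201), Robo2 (0.21, 0.19), Kdr (-0.08, 0.757), Flt1 (-0.20, 0.177) and Alk (-0.25, 0.0926) did not pass either. Alk, a receptor of PTN and midkine, and Flt1 were undetected in feeder cells and at least 2.22-fold and 2.56-fold higher in feeder-free iPSC. Ptprz1 did not pass the filter.

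**Figure D4:**
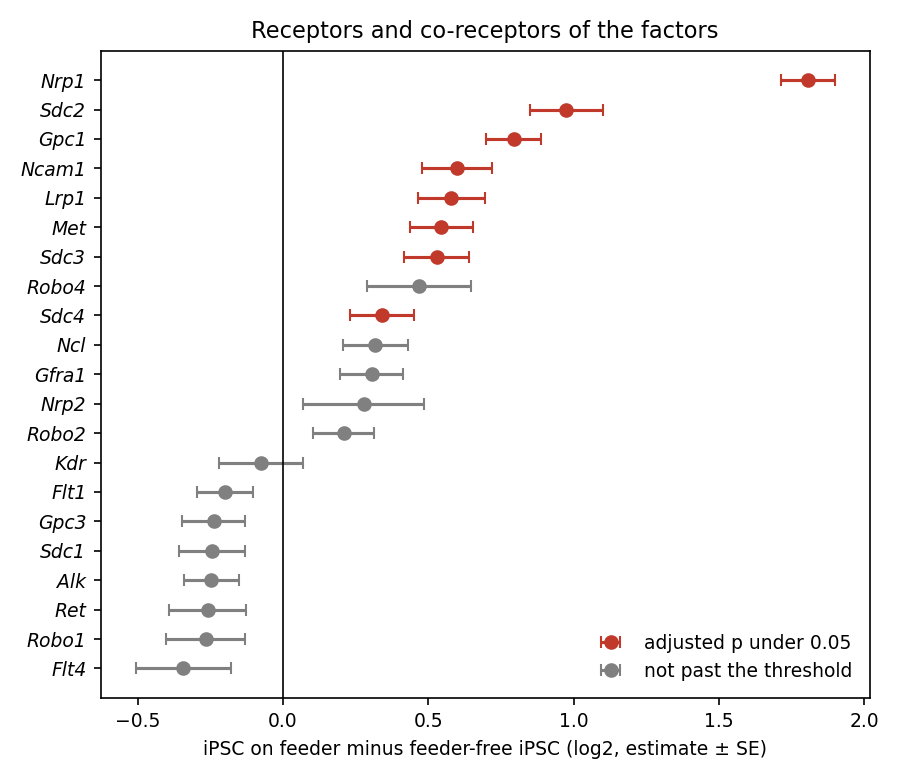
Log2 difference of the 21 receptors and co-receptors tested, iPSC on feeder minus feeder-free iPSC, with bars for the standard error and red points for an adjusted p under 0.05. The 8 red points lie right of 0, from Nrp1 at 1.81 to Sdc4 at 0.34, and Robo1 at -0.27 is grey.

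Genes that process or hold the ligands were called in both directions. Of 8 genes tested among the proteases and inhibitors that control HGF activation, 2 rose and 3 fell in iPSC on feeder against feeder-free iPSC (median -0.08). Over all genes 10% were called higher in that comparison and 8.46% lower. Plau, the urokinase that can cleave pro-HGF, rose 5.03-fold (log2 difference 2.33, SE 0.15, adjusted p = 4.13e-07, limma), and it was also higher than the mixture, by 1.79 (adjusted p = 5.05e-06). Its receptor Plaur rose by 0.41 (adjusted p = 0.0107) but did not pass the threshold against the mixture (0.145, adjusted p = 0.319, limma). The membrane proteases Hpn (hepsin, -0.63, adjusted p = 0.0014) and St14 (matriptase, -0.59, adjusted p = 0.00719) fell. Other probes of Hpn (-0.19) and St14 (-0.26 and -0.14) were short of the threshold. Against the mixture Hpn was lower (-0.61, adjusted p = 0.00695) and St14 fell short (-0.44, adjusted p = 0.0554, limma). Spint2, an inhibitor of these proteases, fell too (-0.40, adjusted p = 0.0173), and was named after its value was seen.

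Of 15 genes tested for heparan sulphate synthesis and editing, the chains on which these factors are held, 2 rose and 2 fell. Over all genes 10% were called higher in iPSC on feeder against feeder-free iPSC and 8.46% lower, and these counts are read no further. Ext1, part of the chain polymerase, fell by 0.68 on the log2 scale (adjusted p = 0.000349) and the sulphotransferase Hs3st1 fell by 0.48 (adjusted p = 0.00548). The sulphotransferase Hs6st2 rose by 0.67 (adjusted p = 0.000821) and Extl3 by 0.36 (adjusted p = 0.0356), a call lost on leaving out feeder-free replicate 2 or 3 or on-feeder replicate 1 or 3. Among 6 related ligands tested, Vegfb fell by 0.43 (adjusted p = 0.0196) and Nrtn, a GDNF relative, fell by 0.41 (adjusted p = 0.0149), and none rose. The Vegfb call was lost without feeder-free replicate 3 or on-feeder replicate 1 or 3, and the Nrtn call without on-feeder replicate 3. Against the mixture 3 were lower, Vegfb (-0.59), Nrtn (-0.39) and Vegfd (-0.84), the last named after its value was seen. Over all genes 5.32% were called lower than the mixture and 5.68% higher. The Nrtn call against the mixture was lost on leaving out any mixture or on-feeder replicate 2 or 3. None of 7 Robo and Met relays tested and none of 5 hypoxia-sensing genes tested was called by limma in iPSC on feeder against feeder-free iPSC, where 3311 of 10058 genes had an unadjusted p under 0.05.

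Profiles over the 8 arrays were compared by Euclidean distance between log2 levels after each gene's own mean was removed, as a description. The nearest genes were Lox (1.47) and Hoxa5 (1.66) to Ptn, where the median gene lay at 8.51, and Plcg2 (0.563) and Cdkn1c (0.602) to Mdk (median 6.79). Cd34 (0.39) and Masp1 (0.393) were nearest to Gdnf (median 4.99), and Gria3 (0.326) and Lgals1 (0.367) to Slit2 (median 3.89). Frmd4a (0.243) and Sptssa (0.283) lay nearest to Vegfa (median 1.53), and Becn1 (0.217) and Olfr1249 (0.237) to Slit3 (median 1.43), where small distances come with small differences between groups.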

How the data were processed

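The members and lists were chosen with earlier results of these data known, so member differences are given without p-values. P-values of list genes are given as a description. Bead intensity was deposited non-normalized, 1 signal per probe, per the file headers. The deposited detection column, headed as a p-value, rose with the signal (Spearman 0.9961 to 0.9987) and was read as 1 minus the p. The submitters' processing notes name limma, without a role. The authors' separate normalized value table was not used. The deposited feeder-free columns were pooled (91% or 92% of the feeder-free mean plus 9% or 8% of the feeder mean), so each feeder-free array was solved for from its deposited mixture column. Pooling the solved arrays again missed the pooled columns by at most 0.0471 signal units, and their Spearman correlations with their own scores were 0.9965, 0.9968 and 0.9978.

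Signals were corrected with normexp on estimates from detection p (offset 16) in limma 3.58.1 under R 4.3.3, then quantile normalized over 8 arrays. Of 46632 entries, 5 without a probe ID were left out. Probes with a score over 0.95 on every array of a group were kept, 18144 of 46627. The brightest probe stood for a gene, with symbols from the platform table (29972 probes with a single symbol, 10 with several, 16645 with none listed). Groups were compared with lmFit and eBayes (5 residual degrees of freedom), two-sided, with Benjamini-Hochberg adjustment over 10058 genes and a threshold of 0.05. Mixtures were rebuilt from the recovered and feeder arrays, are not independent of them, and had a separate fit with the on-feeder arrays (4 residual degrees of freedom). The fit was also run on simulated normalized levels with known changes. Their noise was independent and drawn from the spread of these arrays, so that run does not test the normalization.

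All 7 genes were named. From each list the text names up to 4 genes called in iPSC on feeder against feeder-free iPSC, by size of difference, all called receptors and 10 receptors whatever their values, and for each measured factor the 2 nearest genes by profile. Alternatives were median scaling, offset 50, no filter, a score over 0.99, the mean of probes, each array left out, a replicate block, a fit of 2 groups and another mixture share. Start regions and figures used matplotlib 3.10.9, numpy 2.4.6 and pandas 2.3.3 in Python 3.11.15.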

Additional observations from a re-analysis of the deposited data

How the results depend on the processing

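Of 237 values of the 6 measured factors under the alternatives, 226 kept their direction and side of the threshold, 7 fell short of the threshold and 4 changed sign. These counts do not take in the size of a difference. With offset 50, in iPSC on feeder against feeder-free iPSC, Ptn went from 2.13 to 1.59, Gdnf from 1.90 to 1.15 and Slit2 from 1.54 to 0.873. Ptn in feeder-free iPSC against feeder cells went from -7.68 to -6.93. Of 1511 values of other named genes 1358 kept both, 125 fell short, 14 newly passed and 14 changed sign. The sign changes were in 6 differences, of which Kdr in feeder-free iPSC against feeder cells was the one past the threshold in the report's setting (-0.425, and 0.22 with median scaling). Vegfa in that comparison (-0.049) was at 0.473 with median scaling, 0.00577 with the replicate block and -0.147 to 0.0507 with 1 array left out, and Robo2 (0.0092) was at -0.0348 with the replicate block and -0.0944 to 0.114. Against the mixture Kdr (-0.0394) was at 0.000749 with median scaling and -0.175 to 0.0757 with 1 array left out, and Col6a1 (0.0117) was at -0.0377 with the estimated feeder share and -0.116 to 0.151. Kdr in iPSC on feeder against feeder-free iPSC (-0.0753) ranged from -0.222 to 0.0486. In feeder-free iPSC against feeder cells median scaling moved the median over all genes to 0.28 from -0.01, and it gave 4208 higher and 2368 lower calls (64% higher, against 49.8%). It left 399 calls in iPSC on feeder against feeder-free iPSC (309 higher, 90 lower; 77.4% higher, against 54.2%) and 110 against the mixture (80 higher, 30 lower; 72.7% higher, against 51.6%), where the counts in the report are 1860 and 1106. With it Mdk at 0.605 and Vegfa at 0.628 against feeder-free iPSC, Mdk at 0.731, Gdnf at 0.761 and Vegfa at 0.669 against the mixture, and Slit3 at -0.326 in feeder-free iPSC against feeder cells fell short. The cause was not tested.

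Leaving out 1 array gave 1156 to 2202 calls in iPSC on feeder against feeder-free iPSC, with 1172 and 1156 when feeder-free replicates 2 and 3 were dropped, and 1219 and 1170 when on-feeder replicates 1 and 3 were. Against the mixture it gave 407 to 1544, with 407 and 465 on dropping mixtures 2 and 3, and 569 and 540 on dropping on-feeder arrays 1 and 3. In feeder-free iPSC against feeder cells it gave 7798 to 8084. Vegfa against the mixture ranged from 0.507 to 0.747. Replicate numbers did not pair the arrays (correlations of deviations 0.0252, 0.164 and -0.198 between iPSC on feeder and feeder-free iPSC, and not every array lay nearest its own number), and a replicate block gave 1628, 797 and 8230 calls in the 3 comparisons. Signal over background limits Slit3, Hgf and the feeder-free levels of Gdnf and Slit2.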
